A study of Homo sapiens with 6 samples.

Results

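The subtelomeric bins of the long arms, the stretches of 40 kb that lie within 5 Mb of the long-arm end of each of the 22 autosomes, were described in Hi-C contact maps of LNCaP cells. Bins were taken by position alone, on the human build hg19 (GRCh37), and had to hold contacts in both maps. The windows of the long arms held 2750 bins, of which 47 had no contact, so that 2703 bins remained of 61117 autosomal bins with contacts. The 17 windows at the short-arm ends of chromosomes that are not acrocentric held 2125 bins, of which 0 had a contact in either file. Neither file lists a bin that starts before position 9400001 on any autosome. Contacts between the 2 ends of one chromosome could therefore not be measured, and every contact value below is from long-arm ends.

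LNCaP is a line derived from a lymph node metastasis of a human prostate cancer. Cells received pooled siRNA at 20 nM, either non-targeting (control siRNA) or directed at CTCF (CTCF siRNA), were transfected again after 72 h and were collected at 144 h. Chromatin was cut with BglII and ligated, so that a read pair counts a contact between 2 genomic positions. The 2 control siRNA and 4 CTCF siRNA libraries were pooled by the authors into 1 map per condition. Names of the CTCF siRNA libraries (Rep1, Rep2, Rep1.1 and Rep2.1) do not say whether the last 2 are separate cultures or further sequencing of the first 2. The paper's legend on sites at domain boundaries gives 2 independent biological experiments, without naming these libraries. Without replicates, no difference between conditions can be set against the spread between samples and no p-value is given. Intervals below are 95% intervals for counting error or for the spread over positions only. The files hold no measure of CTCF itself, so the depletion could not be checked in them.

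Chromosome ends carry arrays of a short repeat, bound by the shelterin proteins, which keep the end from being treated as a break. Inside these arrays lie duplicated segments shared between chromosomes, and further inside gene-dense, GC-rich sequence. CTCF binds a directional motif and halts the loop-extruding cohesin complex, and many borders of topologically associating domains (TADs, blocks whose bins contact each other more than their neighbours) carry its sites.

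Up to 110 kb of unknown bases lay between the last assembled base of GRCh37 and the end of the chromosome, so the outermost part of several ends is not in the map at all.

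The windows differed from the other autosomal bins in base composition and in coverage. Median GC content was 47.7% in the windows and 39.4% in the other bins, and when autosomal bins were split into 10 equal classes by GC content, 48.4% of usable window bins were in the highest. The windows held 12.1 protein-coding gene starts per Mb, against 6.46 elsewhere, and 17.2 in the outermost 1 Mb. BglII sites were fewer, with a mean of 8.56 per bin in the windows and 10.9 elsewhere. A core of the CTCF motif of 12 bases (CCAC, any base, AG, any 2 bases, GGC, on either strand) was found in 31.9% of window bins and in 18.2% of all autosomal bins with contacts.

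The maps held 26174660 contacts in control siRNA and 87657922 in CTCF siRNA. A usable window bin, one with at least 10% of its chromosome's median cis count in both maps, held 339 cis contacts at the median in control siRNA and 1921 in CTCF siRNA. In the other usable bins the medians were 381 and 1289. Median cis coverage in the highest GC class was 1.19 times that in the lowest class in control siRNA and 3.95 times in CTCF siRNA. Relative to other bins, the windows thus had the lower cis coverage in control siRNA and the higher in CTCF siRNA. The part of GC content in the differences between conditions below was not tested except where a GC-based expectation is given.

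The first question was how TADs at the ends compared between conditions. In the 22 windows the authors' lists held 99 TADs in control siRNA and 103 in CTCF siRNA, 4.04% more. In the autosomes outside all end windows the lists held 2572 and 2109 TADs, a change of -18.0%. Median size in the windows was 720 kb (interval 640 to 800 kb) in control siRNA and 680 kb (600 to 800 kb) in CTCF siRNA. Outside the windows it was 720 kb (720 to 760 kb) and 840 kb (800 to 880 kb). TADs covered 72.2% of the window length in control siRNA and 74.2% in CTCF siRNA, less than the 87.0% and 84.8% outside. The 17 short-arm windows, whose TADs are in the lists although their contacts are not in the contact files, held 92 and 96 TADs. In windows of 5 Mb both sets of ends thus had a slightly higher number in CTCF siRNA, where the rest of the autosomes had fewer. In long-arm windows of 2 Mb the direction turned, with 26 TADs in control siRNA and 25 in CTCF siRNA. Cis contacts per bin, given above, differed more between the maps in the windows than elsewhere. The part of depth in these TAD counts and in the boundary calls below was not tested.

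Single ends went both ways. A long-arm window held between 1 and 8 TADs, and 7 ends had more TADs in CTCF siRNA, 6 had fewer and 9 had the same number. On 4q the window held 3 TADs in control siRNA and 1 in CTCF siRNA. On 19q it held 4 and 7, and on 5q 5 and 8. The outermost TAD of an end had a median size of 660 kb in control siRNA and 820 kb in CTCF siRNA. Its telomere-side edge lay at a median of 1044 kb from the end in control siRNA and 946 kb in CTCF siRNA. That outer edge was within 40 kb in both lists at 10 ends, the inner edge at 4 ends and both edges at 2 ends, 6q and 15q. No such counts are given for other autosomal TADs, so nothing particular to the ends can be read from them.

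Domains of one list enclosed several of the other in both directions. A TAD counted as enclosed when it reached at most 40 kb beyond either edge of the larger one. In 8 cases a CTCF siRNA TAD of the windows enclosed 16 control siRNA TADs, and in 11 cases a control siRNA TAD enclosed 24 CTCF siRNA TADs. Of the CTCF siRNA TADs in the windows 7.77% enclosed at least 2 control siRNA TADs, beside 16.5% over all autosomes. Of the control siRNA TADs in the windows 11.1% enclosed at least 2 CTCF siRNA TADs, beside 5.25%. Each of the 8 enclosed 2 control siRNA TADs, and the longest, on chr22:46660001-50300000, spanned 3640 kb and held 10 protein-coding gene starts. These included CELSR1, an atypical cadherin of planar cell polarity, and BRD1, a chromatin reader protein. Of the control siRNA TADs, one on 5q and one on 13q enclosed 3 CTCF siRNA TADs each. The longer, on chr13:110780001-114060000, spanned 3280 kb with 21 protein-coding gene starts. Its genes included COL4A1 and COL4A2, which encode chains of basement membrane collagen, the clotting factors F7 and F10, and CUL4A, a ubiquitin ligase scaffold.

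Boundaries were compared next. Each TAD edge counted as a boundary, facing edges of neighbouring TADs within 100 kb of each other were joined into 1, and a boundary was shared when the other list had one within 40 kb. Of 130 control siRNA boundaries in the long-arm windows, 57 were absent from the CTCF siRNA list, 43.8% (Wilson interval 35.6 to 52.4%). Over all autosomes the lost share was 47%, and over all boundaries outside these windows it was 47.1% (45.4 to 48.9%). Of 125 CTCF siRNA boundaries in the windows, 53 were gained, 42.4% (34.1 to 51.2%), against 36.6% over all autosomes. Both shares in the long-arm windows have intervals that include the autosomal share. Of the 130 control siRNA boundaries, 67 lay between neighbouring TADs, of which 22 were lost (32.8%, beside 42.4% over all autosomes). The other 63 were single TAD edges with no facing edge that near, of which 35 were lost (55.6%, beside 55.7%). In CTCF siRNA 35 of 85 boundaries between neighbouring TADs were gained (41.2%, beside 29.7%), and 18 of 40 single edges (45%, beside 50%). The lost share was 30.2% (22.6 to 39.1%) at the 116 control siRNA boundaries of the short-arm windows and 37.4% (31.6 to 43.6%) over the windows of both arms, and these intervals lie below the autosomal share.

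Lost boundaries were spread over the ends, since 21 of 22 windows had at least 1. On 4q and 22q all control siRNA boundaries were lost, 4 and 3, while 19q lost 0 of 4 and 16q lost 1 of 8. By distance from the end, the lost share ran from 22.7% (10.1 to 43.4%) at 3 to 4 Mb to 60.7% (42.4 to 76.4%) at 1 to 2 Mb. In the outermost 1 Mb it was 40% (19.8 to 64.3%) of 15 boundaries. The wide intervals overlap, so no order of the distance classes can be read from these counts.

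The insulation value gives the depth of a boundary from the contacts themselves. It is log2 of the contacts across a bin over those within its flanks of 400 kb, each over the number expected from distance on that chromosome, so that a lower value is a stronger boundary. At the 56 lost boundaries of the windows with a value, the median insulation value was -0.83 in control siRNA and -0.40 in CTCF siRNA. Per boundary the change had a median of 0.51 (0.38 to 0.57), beside 0.60 (0.57 to 0.63) at lost boundaries elsewhere, and 54 of 56 had a higher value in CTCF siRNA. Lost boundaries of all autosomes were higher in 94.7%. The calls chose these positions, so a change in this direction is in part what defines them.

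At the positions called in control siRNA, maintained boundaries also had a shallower value in CTCF siRNA. Their medians were -0.95 in control siRNA and -0.66 in CTCF siRNA, and the changes had a median of 0.30 (0.15 to 0.38). A higher value was seen at 54 of 68, or 79.4%, beside 79.8% over all autosomes. The control siRNA call chose these positions, and the CTCF siRNA list could place the same boundary up to 40 kb away. The part of this choice in the change was not tested. At gained boundaries, chosen by the CTCF siRNA call, the medians were -0.47 and -0.64. The median change was -0.14 (-0.28 to 0.03), and 19 of 52 were higher, beside 35.3% over all autosomes. With flanks of 200 kb the median change was -0.14 (-0.30 to -0.01), and with flanks of 800 kb -0.03 (-0.14 to 0.13). In TAD interiors of the windows the median change over 921 bins was -0.03 (-0.04 to -0.01), with 45.5% higher against 40.2% over all autosomes. Neighbouring bins share flanks, so this interval is too narrow. It included 0 with flanks of 200 kb (-0.044 to 0.003) and of 800 kb (-0.022 to 0.016). At boundaries of each class the share in the windows thus lay near that of all autosomes.

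**Figure D1:**
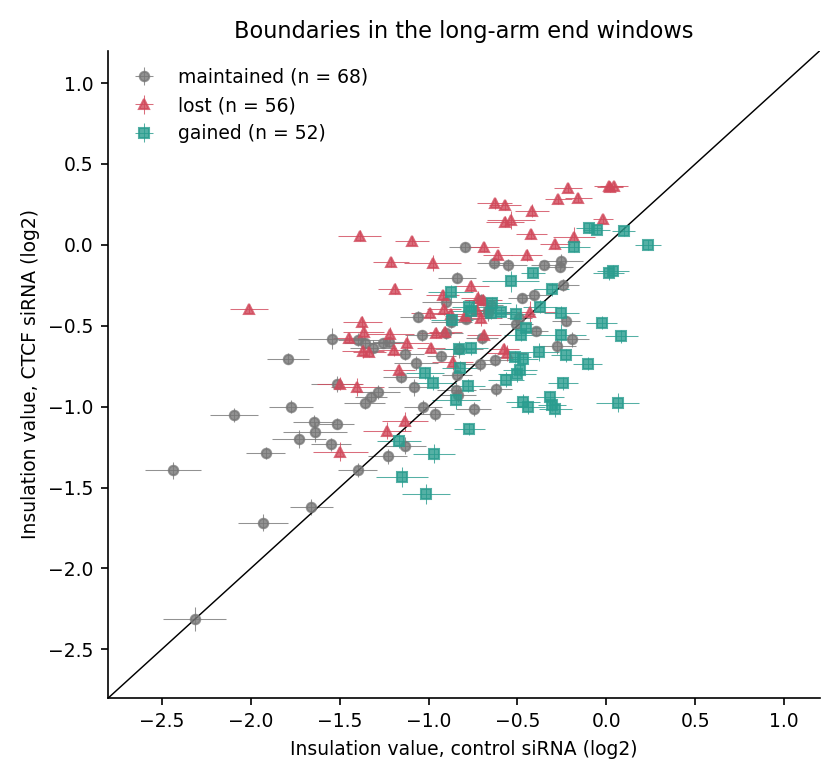
Insulation value (log2) of each boundary in the long-arm end windows in control siRNA (horizontal) and CTCF siRNA (vertical), with bars of 1 counting SD. Lost boundaries (n = 56) lie above the diagonal in 54 of 56 cases, maintained ones (n = 68) in 54, and gained ones (n = 52) in 19.

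Among lost boundaries with at least 50 contacts expected across them, at most 1 per end, the 4 largest changes were on 20q, 7q, 11q and 22q. On chr20:60480001-60520000, inside CDH4, which encodes R-cadherin, 188 contacts crossed the bin in control siRNA, where 453 were expected, and 3631 in CTCF siRNA, where 2872 were expected. The insulation value was -2.01 ± 0.11 (counting SD) and -0.39 ± 0.03. On chr7:154560001-154600000, inside DPP6, which encodes an auxiliary subunit of potassium channels, it was -1.39 ± 0.12 in control siRNA and 0.06 ± 0.03 in CTCF siRNA. The boundary on chr11:133720001-133760000 overlapped no protein-coding gene and went from -1.09 ± 0.10 to 0.03 ± 0.03. On chr22:48920001-48960000, within TAFA5, which encodes a secreted chemokine-like protein, the values were -1.21 ± 0.10 and -0.11 ± 0.03. In CTCF siRNA the 7q and 11q bins were within 2 counting SD of their flanks, while those on 20q and 22q were still below them.

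The gained boundary with the largest change was on chr13:111320001-111360000, inside CARS2, which encodes the mitochondrial cysteinyl-tRNA synthetase. Its insulation value was 0.06 ± 0.12 in control siRNA and -0.97 ± 0.06 in CTCF siRNA. The second, on chr22:46480001-46520000, overlapped no protein-coding gene and had values of -0.29 ± 0.09 and -1.02 ± 0.05. The deepest maintained boundaries in control siRNA were on 3q and 14q. On chr3:193320001-193360000, in OPA1, which encodes a GTPase of mitochondrial fusion, the value was -2.44 ± 0.16 in control siRNA and -1.39 ± 0.05 in CTCF siRNA. On chr14:105960001-106000000, across TEDC1 and TMEM121, it was -2.32 ± 0.18 and -2.31 ± 0.08. The 14q boundary was thus the same in both maps within counting error, while the 3q boundary stayed a boundary at a shallower value.

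Matches to the CTCF core were looked for in these 8 boundary bins and in the bins of gained boundaries next to listed genes. The bins in CDH4, TAFA5, OPA1 and TEDC1 and the one on 11q held none. One match each is shown for a lost boundary, for both gained boundaries above and for the gained boundaries next to the genes RTEL1 and NHP2. The bin next to RTEL1 held 2 more matches, and the 7q and 5q matches have the same core. They are printed 5′ to 3′ on the strand of the match, on GRCh37, with the core in capitals and 20 bases on either side, to show how the matches differ within the core.
7q, lost, intron of DPP6, chr7:154586058-154586109, minus strand: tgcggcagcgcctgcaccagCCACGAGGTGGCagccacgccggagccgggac
13q, gained, at an exon of CARS2, chr13:111358193-111358244, plus strand: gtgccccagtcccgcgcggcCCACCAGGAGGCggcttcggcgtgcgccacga
22q, gained, between genes, chr22:46518465-46518516, plus strand: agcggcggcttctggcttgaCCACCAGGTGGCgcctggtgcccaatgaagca
5q, gained, next to NHP2, in an intron, chr5:177591339-177591390, minus strand: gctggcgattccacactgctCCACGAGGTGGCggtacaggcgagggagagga
20q, gained, intron of GMEB2, chr20:62245722-62245773, plus strand: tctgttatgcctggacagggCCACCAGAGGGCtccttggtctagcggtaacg
A match held by a bin is not evidence of binding. A core match was in 42.1% of the 57 lost, 41.1% of the 73 maintained and 39.6% of the 53 gained boundary bins, and in 34.7% of 72 bins at the CTCF siRNA positions of shared boundaries, beside 31.9% of all window bins. Median GC content was 50.6%, 49.1% and 49.2% in the boundary bins, above that of the windows.

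Of 64 genes listed for their place near chromosome ends, 28 start in the long-arm windows and the other 36 in short-arm windows without contacts. No gene start was within 40 kb of a lost boundary, beside 7.25% of protein-coding gene starts on all autosomes. Starts of 3 genes were within 40 kb of a gained boundary, beside 7.08% of all autosomal starts, and 2 of a maintained one, beside 15.3%. With so few genes, nothing can be read from these counts. Of 22 genes with an insulation value, 13 were higher in CTCF siRNA, beside 57.6% of all autosomal protein-coding gene starts, and 8 were higher in CTCF siRNA by over 2 counting SD, beside 37.2% of those starts. Another 8 were lower by that much, beside 23.3%. The median change over the 22 genes was 0.10, and over all autosomal protein-coding gene starts 0.08.

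RTEL1 and NHP2, listed for telomere maintenance, and ING1 were the 3 genes that started near a gained boundary. RTEL1, a helicase that unwinds telomeric loops, lies on the plus strand at chr20:62289163-62327606. At its start 452 contacts crossed the bin in control siRNA and 1457 in CTCF siRNA, and the insulation value was -0.07 and -0.94, a change of -0.87 ± 0.09. NHP2, a component of the telomerase ribonucleoprotein, lies on the minus strand at chr5:177576464-177580895, and its bin had no insulation value. It lay within a control siRNA TAD of 680 kb, and in CTCF siRNA it straddled the edge, at position 177580001, of a TAD of 440 kb. ING1, a reader of histone methylation, lies next to the 13q boundary in CARS2, with 0.14 in control siRNA and -0.84 in CTCF siRNA.

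Of the 8 developmental regulators, 6 had a higher value in CTCF siRNA and 4 of them by over 2 counting SD, beside 57.6% and 37.2% of all autosomal protein-coding gene starts. The largest change was at SHH, the morphogen of limb and neural patterning, at chr7:155592674-155605157 on the minus strand. It started within 40 kb of a maintained boundary and had -1.41 in control siRNA and -0.37 in CTCF siRNA. In control siRNA that boundary joined facing TAD edges at positions 155540000 and 155580001. In CTCF siRNA the TAD edge was at position 155540001, next to the first of these. The change was 1.09 at the control siRNA position of the boundary and 0.48 at its CTCF siRNA position. LHX3, a transcription factor of pituitary development, went from -0.45 to -0.04, and SALL3, a zinc finger factor, from -0.37 to 0.07. MNX1 and EN2, homeobox genes near SHH on 7q, were lower in CTCF siRNA. MNX1 had -0.07 and -0.47, and EN2 had -0.02 and -0.44.

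Of the 7 genes of growth control, NFATC1, a transcription factor of calcineurin signalling, was higher by over 2 counting SD, with -0.95 in control siRNA and -0.42 in CTCF siRNA. ING1 and MGMT, which removes alkyl groups from guanine, were lower, and MGMT had 0.45 and 0.15. The values at AKT1, a kinase of growth signalling, were -0.64 and -0.57, and differed by less than 2 counting SD. Among the neuronal genes only PTPRN2, which encodes a receptor-type phosphatase of secretory granules, had a value, -0.87 and -0.47. Among the other genes FASN, fatty acid synthase, TFRC, the transferrin receptor, and PPARA, a lipid-sensing nuclear receptor, were lower. Their changes were -0.42, -0.22 and -0.72. COL6A1 and COL6A2, adjacent genes of collagen VI, were higher by 0.48 and 0.18.

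The next question was how contacts within the windows compared with those of other bins at the same distance. Of the contacts of window bins, 54.3% (54.2 to 54.4%) were within the chromosome in control siRNA and 71.9% (71.9 to 71.9%) in CTCF siRNA. For the other bins it was 50.4% and 62.1%. Contacts over more than 2 Mb were 17.4% of cis contacts of window bins in control siRNA and 13.1% in CTCF siRNA, without contacts within a bin, and 23.9% and 18.7% elsewhere. Window bins thus had the higher cis share and the lower share of long contacts in both maps, and cis share differed between the maps in the other bins as well. These shares do not allow for a bin near an end having sequence of its chromosome mainly on one side.

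Expected cis contacts were computed from distance, over all autosomal pairs of the map, times the trans coverage of both bins. Between 40 and 400 kb the windows held 256449 contacts in control siRNA, 1.66 times the expected number (1.65 to 1.67), and 1515318 in CTCF siRNA, 1.97 times (1.97 to 1.97). Between 1 and 4 Mb the values were 1.35 (1.34 to 1.37) and 1.81 (1.80 to 1.82). The ratio of CTCF siRNA to control siRNA was 1.19 (1.18 to 1.19) at the shorter and 1.34 (1.33 to 1.36) at the longer distance. At each distance 21 of 22 ends were higher in CTCF siRNA, all but 9q at the shorter and all but 4q at the longer. This count is given neither for other autosomal windows of the same length nor with balanced counts. Nothing particular to the ends can therefore be read from it. The parts of GC content and of the differing cis share of the maps in these ratios and this count were not tested. The other bins were at 0.981 and 0.966 at the shorter distance.

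The end values spread widely. At the shorter distance they ran from 0.760 on 1q to 3.71 on 16q in control siRNA and from 0.906 on 1q to 3.99 on 16q in CTCF siRNA, with 21 of 22 ends above 1 in each map. At the longer distance the lowest was 3q, with 0.639 and 0.931, and the highest 22q, with 2.80 and 3.83. Values on 9q, 13q, 16q and 17q were above 3 in both maps at the shorter distance. The decay of contacts from 200 kb to 4 Mb had a log-log slope of -1.63 in the windows and -1.58 elsewhere in control siRNA. In CTCF siRNA the slopes were -1.70 and -1.69.

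**Figure D2:**
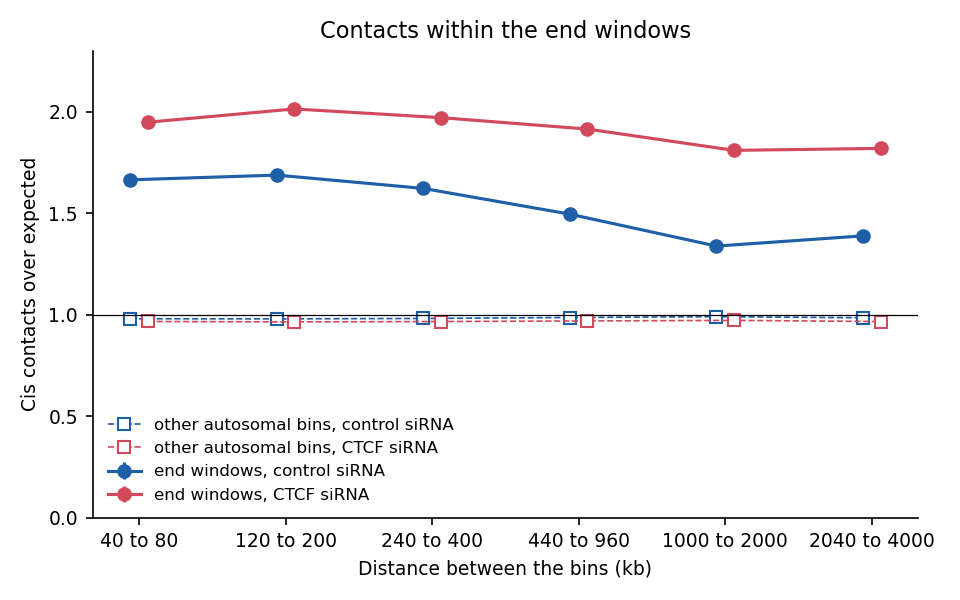
Cis contacts over expected (vertical) by distance between the bins (horizontal, in kb) within the long-arm end windows (filled circles) and among other autosomal bins (open squares), in control siRNA and CTCF siRNA. Bars are 95% Poisson intervals and are smaller than the points. The windows lie above the other bins in each class, with 1.66 and 1.95 at 40 to 80 kb, and with 1.39 and 1.82 at 2040 to 4000 kb.

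The size of these values rests on the expectation. When counts were balanced so that each bin had the same cis total, the windows had 1.12 times the expected contacts at 40 to 400 kb in control siRNA and 1.20 times in CTCF siRNA. At 1 to 4 Mb the balanced values were 0.892 and 0.992. With distance alone as the expectation, the longer range gave 0.854 in control siRNA and 1.36 in CTCF siRNA. With balanced counts 17 of 22 ends were above 1 at the shorter distance in each map. End values then ran from 0.629 to 1.64 in control siRNA and from 0.569 to 1.82 in CTCF siRNA. The values above 3 at single ends were thus seen only with the expectation from trans coverage, not with balanced counts. At 1 to 4 Mb 7 ends were above 1 in control siRNA and 8 in CTCF siRNA. Summed over the ends, the value at the shorter distance was above 1 with each expectation tried, while at 1 to 4 Mb the direction turned with the expectation.

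Contacts between ends of different chromosomes were compared with the number expected from the trans coverage of each bin. The 231 pairs of long-arm ends on different autosomes held 19481 contacts in control siRNA, 1.33 times the expected number (1.32 to 1.35), and 63718 in CTCF siRNA, 1.46 times (1.45 to 1.47). Without the pairs of chromosome 4 with 6, 4 with 10 and 6 with 16, the values were 1.34 and 1.46. The part of rearranged chromosomes in the other pairs was not tested. Contacts of ends with all other bins were at 0.988 and 0.982. With total (cis and trans) coverage as the expectation the values were 1.11 in control siRNA and 0.806 in CTCF siRNA, so that the direction in CTCF siRNA, and which map had the higher value, turned with that choice. Of the 231 pairs, 168 were above expected in both maps, 72.7%, beside 28.4% of pairs of 5 Mb tiles of different autosomes. The ratio of CTCF siRNA to control siRNA was 1.096 (1.08 to 1.11), and 142 pairs, 61.5%, were higher in CTCF siRNA, beside 48.9% of tile pairs. With GC class in the expectation, 105 pairs, 45.5%, were higher in CTCF siRNA, beside 49% of tile pairs, so that the majority turned. The median over pairs was 1.21 (1.16 to 1.30) in control siRNA and 1.27 (1.23 to 1.32) in CTCF siRNA. The maps also differed in cis share, given above, and its part in the ratio of the maps was not tested.

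Ends of the acrocentric chromosomes 13, 14, 15, 21 and 22, whose short arms carry the ribosomal RNA genes, were set beside the others. The 10 pairs of these ends were at 1.28 (1.18 to 1.37) in control siRNA and 1.51 (1.45 to 1.57) in CTCF siRNA. The 136 pairs without an acrocentric chromosome were at 1.33 (1.30 to 1.35) and 1.45 (1.44 to 1.46). The ratio of CTCF siRNA to control siRNA was 1.18 (1.09 to 1.29) for the first, with 9 of 10 pairs higher in CTCF siRNA, and 1.09 (1.07 to 1.11) for the second, with 83 of 136 higher. The intervals of the 2 ratios overlap, and their difference was not tested. Of tile pairs, 48.9% were higher in CTCF siRNA. These counts are from trans coverage alone. With GC class in the expectation 45.5% of all pairs of ends were higher, and no count is given there for acrocentric pairs.

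Which ends met most was nearly the same in both maps. Summed over its pairs, 21 of 22 ends were above 1 in control siRNA and 20 in CTCF siRNA, and 19 were higher in CTCF siRNA, all but 4q, 6q and 15q. With GC class in the expectation, 20 ends were above 1 in control siRNA and 17 in CTCF siRNA, and 14 were higher in CTCF siRNA. From coverage alone, the highest was 9q, with 1.91 (1.82 to 1.99) in control siRNA and 2.13 (2.09 to 2.18) in CTCF siRNA, followed by 17q with 1.85 and 2.05. The lowest was 1q, with 0.962 (0.918 to 1.01) and 0.963 (0.936 to 0.991), and 4q had 1.01 and 0.973. Spearman's rho between the maps was 0.983 over the 22 ends.

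The order of the ends followed their GC content. As a description, with no test, rho between GC content and the end value was 0.966 in control siRNA and 0.989 in CTCF siRNA over 22 ends. With the number of protein-coding genes it was 0.644 and 0.689. The windows of 9q, 17q and 16q, at the top, had a mean GC content of 55.1%, 53.8% and 52.6%, and those of 4q and 1q, at the bottom, 40.8% and 41.7%. All 22 points lie at an end and share the maps, so position at the end does not vary among them. The separate parts of GC content and gene density in these values were not tested.

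**Figure D3:**
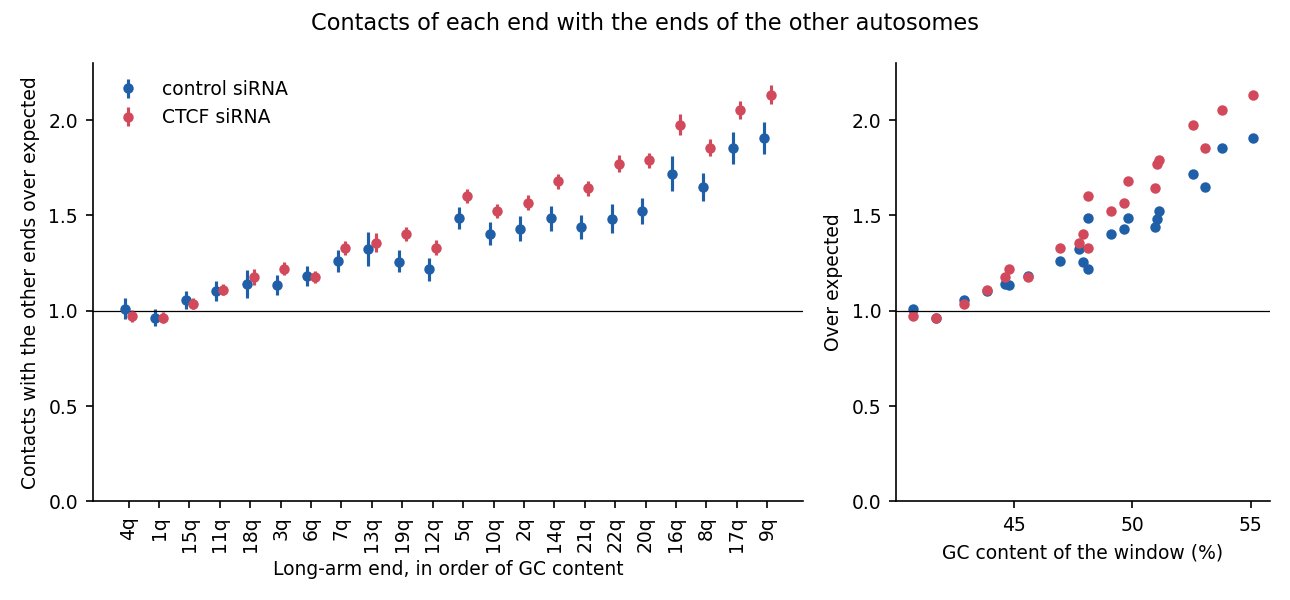
Contacts of each long-arm end with the ends of the other 21 autosomes over expected, with the ends in order of GC content (left, bars are 95% Poisson intervals) and against GC content in percent (right), in control siRNA (blue) and CTCF siRNA (red). Values run from 0.962 and 0.963 on 1q to 1.91 in control siRNA and 2.13 in CTCF siRNA on 9q.

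With an expectation that also held the rate of contacts between 10 classes of GC content, the ends were at 1.13 (1.11 to 1.15) in control siRNA and 1.16 (1.15 to 1.17) in CTCF siRNA. The ratio of the maps was then 1.02 (1.01 to 1.04). Of the 231 pairs, 108 were above this expectation in both maps, 46.8%, beside 25.4% of tile pairs. The excess, and the difference between the maps, were thus smaller with GC content in the expectation.

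Contacts between ends were highest next to the end itself. Between bins of the outermost 1 Mb of different chromosomes, 1165 contacts were counted in control siRNA, 2.32 times the expected number (2.19 to 2.46), and 4154 in CTCF siRNA, 2.64 times (2.56 to 2.72). Bins at 1 to 2 Mb were at 1.52 (1.41 to 1.63) and 1.66 (1.60 to 1.73) with each other. At 4 to 5 Mb the values were 1.15 (1.08 to 1.24) and 1.27 (1.22 to 1.32), and at 5 to 6 Mb 1.04 (0.973 to 1.12) and 1.09 (1.05 to 1.14). With GC class in the expectation, the outermost 1 Mb was still at 1.94 (1.83 to 2.05) in control siRNA and 2.05 (1.99 to 2.11) in CTCF siRNA. Beyond 2 Mb this expectation left values of at most 1.13 in both maps. Without the outer 500 kb of each window the ends were at 1.29 and 1.40. The part of segments duplicated between chromosomes in the values of the outermost 1 Mb was not tested.

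**Figure D4:**
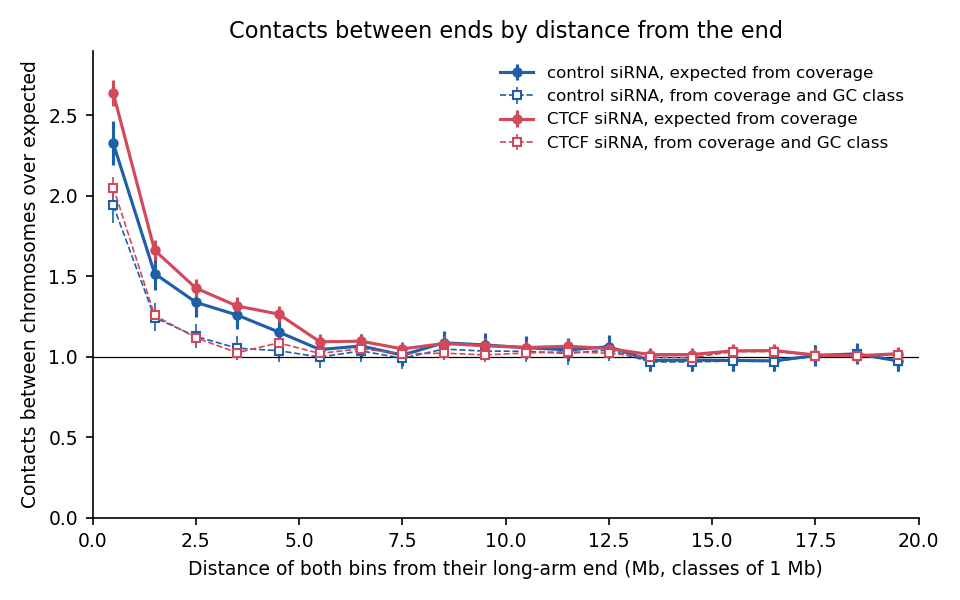
Contacts between bins of different autosomes that lie in the same 1 Mb class of distance from their long-arm ends (horizontal, in Mb), over expected from coverage (filled circles) or from coverage and GC class (open squares), in control siRNA (blue) and CTCF siRNA (red). Bars are 95% Poisson intervals. The outermost class is at 2.32 and 2.64 from coverage and at 1.94 and 2.05 with GC class, and values come near 1 from the class at 5 to 6 Mb inward.

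The 5 pairs with the highest value in both maps, taken once per pair of chromosomes and ranked by the lower of the maps, joined the GC-rich ends. Between 9q and 17q, 211 contacts were counted in control siRNA, 5.34 times the expected number (4.64 to 6.11), and 789 in CTCF siRNA, 5.76 times (5.36 to 6.18). Between 9q and 16q the values were 3.92 (3.25 to 4.69) and 4.32 (3.94 to 4.72). The pair of 16q and 17q was at 3.70 and 3.99, that of 9q and 22q at 3.43 and 3.55, and that of 17q and 21q at 3.04 and 3.46. In none of these 5 pairs did the ratio of the maps have an interval that left out 1, and no single pair of bins held over 1.79% of the contacts. With GC class in the expectation the pair of 9q and 17q was at 3.20 and 3.10, and each of the other 4 was at 1.97 or more in both maps.

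The 3 lowest pairs were those of 1q with 21q, 4q with 9q and 1q with 16q. Between 1q and 21q, 57 contacts were counted in control siRNA, 0.592 times the expected number (0.449 to 0.768), and 165 in CTCF siRNA, 0.612 times (0.523 to 0.713). The pair of 4q and 9q was at 0.625 (0.427 to 0.882) and 0.667 (0.544 to 0.810), and that of 1q and 16q at 0.731 (0.522 to 0.996) and 0.545 (0.437 to 0.672). With GC class in the expectation these pairs stayed below 1, at 0.571 and 0.585, 0.643 and 0.700, and 0.702 and 0.517. Over all 231 pairs the ratio of CTCF siRNA to control siRNA had a 95% interval above 1 for 26 pairs and below 1 for 0, beside 2.91% and 3.16% of tile pairs. With GC class in the expectation it was above 1 for 9 pairs and below 1 for 1, beside 2.54% and 2.72%. These intervals cover counting error only and were not adjusted for the number of pairs.

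**Figure D5:**
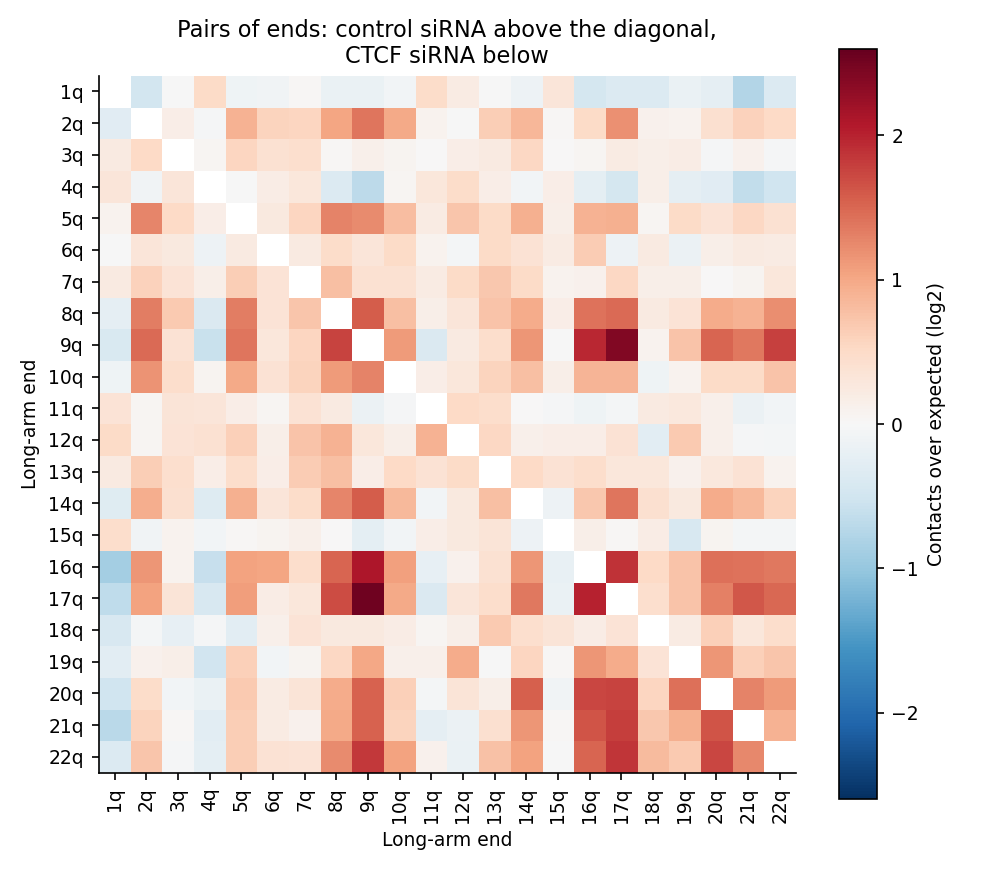
Contacts over expected from coverage (colour, log2 scale) for each pair of the 22 long-arm ends, with control siRNA above the diagonal and CTCF siRNA below. The ends 9q, 16q and 17q have the highest values with each other (3.70 to 5.34 in control siRNA, 3.99 to 5.76 in CTCF siRNA), and many of the pairs of 1q and of 4q are blue, below 1.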

How the data were processed

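The deposited contact values are read-pair counts multiplied by a correction factor of each bin, as the values themselves show, with no scaling for depth. Per the paper's methods, the authors mapped reads to hg19 with HiCUP (Bowtie 1.1.0), tagged duplicates, pooled the libraries of a condition into bins of 40 kb and computed bias offsets with HiCorrector. They called TADs from a directionality index, and the deposited lists give start and end in bp. The submitters' processing notes also name FastQC 0.11.2, SAMtools 1.2 and Picard 1.121. Factors other than 1 were estimated from the values, belonged to bins between positions 9400001 and 48120000 and were alike on all chromosomes at all 848 positions checked. Dividing them out gave whole counts for 100.00% of values with a factor, within 0.0101 plus 0.05% of the value. Raw counts had been planned for, and these recovered counts were used. Of the member windows only those of 21q and 22q reach into that range. No contact of a bin before position 9400001 was listed on any chromosome, so contacts between both ends of one chromosome, although planned, could not be computed, and windows were limited to long arms. Members and lists were chosen with earlier results of these data known.

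Expected trans counts came from a product of 1 factor per usable bin that keeps each bin's trans total. Poisson, Wilson, conditional binomial (Clopper-Pearson, for ratios of maps) and order-statistic (for medians) intervals are at 95%. They cover no variation between samples, and read pairs are not free of PCR bias. Boundaries were named as the 4 lost, 2 gained and 2 maintained ones with the largest changes or lowest control values, with at least 50 contacts expected across. End pairs were named as the 5 highest and 3 lowest, with at least 20 contacts observed or expected. Genes were described from a list of 64. Alternatives changed the window, the distances for boundaries, the flank, the bin filter, the expectation and the use of recovered counts. Gene annotation was GENCODE lifted to GRCh37, whose chromosome lengths match. Counting SDs follow from the contacts across and within the flanks. The scripts were tested on simulated data. Python 3.11.15, NumPy 2.4.6, SciPy 1.17.1 and pandas 2.3.3 were used. Sequence of the chromosome ends themselves is not reported here.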

Additional observations from a re-analysis of the deposited data

How the results depend on the processing

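No paired analysis was possible because the authors pooled the libraries into 1 map per condition, and for the same reason no replicate could be left out. The alternatives planned for contacts between both ends of one chromosome were not run, since the short-arm windows hold no contacts. Of 90 alternatives over 16 results, 46 stayed within the interval of the value (for counts of TADs, close to it), 40 moved further and 4 changed direction, and the cause was not tested. Values follow as control siRNA, then CTCF siRNA. Contacts between ends of different chromosomes were 1.11 and 0.806 (changed direction) times expected from total coverage, 1.13 and 1.16 with GC class, 1.29 and 1.40 without the outer 500 kb, and 1.21 and 1.27 as the median over pairs. In CTCF siRNA they were 1.45 with bins of at least 50% of the median cis count and 1.44 with the expectation set within chromosome pairs. Cis contacts at 40 to 400 kb and at 1 to 4 Mb changed as follows. With distance alone they were 1.07 and 1.498, and 0.854 (changed direction) and 1.36. With balanced counts they were 1.12 and 1.203, and 0.892 and 0.992 (both changed direction). With the expectation from the same chromosome they were 1.53 and 1.73, and 1.31 and 1.65. With bins of at least 50% of the median they were 1.901 in CTCF siRNA at the shorter distance, and 1.40 and 1.78 at the longer. The values as deposited gave 1.96 and 1.80 in CTCF siRNA. Without the outer 500 kb they were 1.68 and 2.01, and 1.85 in CTCF siRNA at the longer distance. The cis share was 50.8% and 68.9% without contacts within a bin, and 71.9% in CTCF siRNA over all bins with a contact. TADs numbered 26 and 25 in windows of 2 Mb, 220 and 226 in windows of 10 Mb, and 191 and 199 in windows of both arms, a choice made after seeing the data. The lost share was 56.2% where boundaries had to touch, with 45.6% of CTCF siRNA boundaries shared, 34.2% with edges joined within 400 kb and 53.5% in windows of 2 Mb. The change in TAD interiors was -0.0020 with flanks of 800 kb. Depth limits single boundaries and pairs in control siRNA most, where the median pair of ends had 63.3 contacts expected, against 192 in CTCF siRNA.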
